A study of Rattus norvegicus with 12 samples.

Results

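The aminoacyl-tRNA synthetases are the enzymes that load each transfer RNA (tRNA) with its amino acid. They were followed through the livers of 12 rats, 6 with access to ethanol and 6 with water only. Members were taken by gene name: symbols made of 1 letter and "ars", with or without a final 2, plus Eprs, Farsa, Farsb and the 3 scaffold proteins Aimp1, Aimp2 and Eef1e1. This found 36 genes of the 15270 with a value above 0 in at least 1 liver: 19 cytosolic enzymes, 14 mitochondrial enzymes, whose names end in 2, and the 3 scaffold proteins. The 36 genes had 50 transcript rows above 0. Each gene was represented by its row with the highest mean, and 25 genes had no other row.

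Most synthetases pair 1 amino acid with its tRNAs, using ATP, and ribosomes can only draw on the tRNAs so loaded. The cytosol and the mitochondria mostly use separate genes for this, although Gars and Kars are known to supply both compartments. Several cytosolic enzymes are held, with the scaffold proteins, in a large multisynthetase complex. Genes of many cytosolic synthetases are known targets of Atf4, a transcription factor induced when amino acids run short, which binds amino acid response elements in DNA.

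All animals were female rats of the inbred alcohol-preferring strain iP10a, which drinks ethanol by choice. EtOH animals had bottles of 10, 20 and 30% ethanol beside tap water for 23 weeks, and control animals had tap water. Livers were taken at 38 weeks of age, except for EtOH animal 6 at 39 weeks. Polyadenylated RNA of whole liver was sequenced, and the table gives RPKM, reads scaled to the length of the transcript and to all mapped reads of the liver. Between 2610238 and 6030028 reads lay behind a liver's values, with a median of 3305920 in control livers and 4302209 in EtOH livers. Animals of 1 inbred strain and 1 sex limit what the groups stand for, and each liver is a separate animal. Differences were tested with limma on quantile-normalized log2(RPKM + 0.5), with Benjamini-Hochberg adjustment over all 21718 transcripts above 0 and a threshold of 0.05. Log2 differences below are EtOH minus control on that scale, each with its SE.

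Because the amino acid response element is a short sequence, the promoters of the synthetases were searched for it. The motif TGATGCAA, on either strand, was looked for in RefSeq promoters of build GRCr8, from 250 bases before to 50 bases after each gene's start. Entries were found for 32 of the 36 genes. It lay in 7 of 16 cytosolic promoters (Aars, Cars, Iars, Mars, Nars, Tars and Yars), in 0 of 13 mitochondrial promoters and in 0 of 3 scaffold promoters. Over all genes with a promoter entry, 227 of 27457 (0.827%) held it. A second form, TGATGAAA, lay in 1 cytosolic promoter, against 334 of all 27457 genes (1.22%). The windows below show 5 of these 7 promoters, to let the matches be read in place. They run 5′ to 3′ on the gene's strand, capitals mark the match, and it reads TTGCATCA where the motif is on the other strand. The match began 24 bases before the start for Iars (chr17:15193658-15193687, minus strand), 17 for Mars (chr7:65023752-65023781, minus) and 27 for Tars (chr2:62114811-62114840, minus). It began 18 bases after the start for Cars (chr1:208225334-208225363, minus) and 39 after it for Yars (chr5:146820190-146820212, plus).
Iars: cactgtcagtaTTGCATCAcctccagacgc
Mars: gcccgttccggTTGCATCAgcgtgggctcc
Tars: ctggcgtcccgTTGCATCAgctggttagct
Cars: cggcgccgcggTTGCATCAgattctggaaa
Yars: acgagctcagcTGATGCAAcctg
A match describes these letters only and is neither a shown binding site nor a cause of any difference.

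Of the 19 cytosolic synthetases, 7 fell in EtOH livers (Aars, Mars, Yars, Farsb, Farsa, Rars and Vars) and 0 rose, where 1.29% of all tested transcripts fell and 1.13% rose. Among the 11086 transcripts whose RPKM averaged 1 or more, as all 36 genes did, 2.35% fell and 2.12% rose. The 6 EtOH livers all lay below the 6 control livers for 10 of the 19, against 2.43% of all tested transcripts and 4.67% of those averaging 1 or more. They all lay above for 0 of the 19 (background 0.677%). Among the 5040 transcripts in the RPKM range of these enzymes, EtOH livers were all lower for 368 and all higher for 46. Of the same 5040, 169 fell and 152 rose. Over all 36 genes, 32 had a log2 difference below 0, as 10851 of the 21718 tested transcripts did. The mean RPKM was lower in EtOH livers for 19 of 19, by a median of 1.46-fold, as it was for 3532 of the 5040 transcripts in the RPKM range of these enzymes. The study's own list of altered genes came from these samples, so the several synthetases it holds are not independent evidence of this direction. The median log2 difference of the 19 was -0.38, against -0.0005 over those 5040 transcripts.

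The quantile step moved the levels themselves. As deposited, the median log2 difference of those 5040 transcripts was -0.13, and that of the 19 cytosolic synthetases -0.52. Folds of RPKM means in the text are on the deposited scale and therefore larger than the log2 differences imply. Over all transcripts, 281 fell and 245 rose with the quantile step, 337 and 194 with scaling by medians, and 648 and 126 with no scaling between livers.

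**Figure D1:**
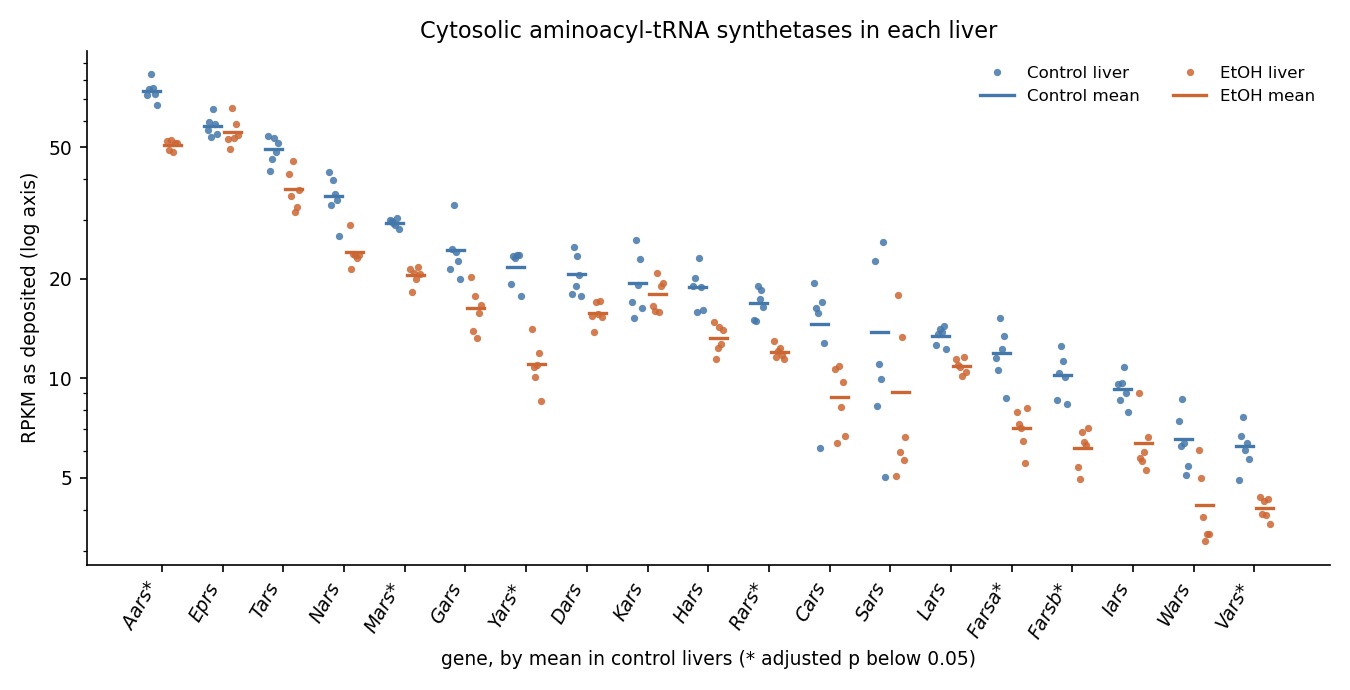
RPKM (log axis) of the 19 cytosolic synthetases in each of 6 control and 6 EtOH livers, with bars at the group means and genes ordered by the control mean. The 2 groups do not overlap for 10 genes, among them the 7 with an asterisk (adjusted p below 0.05), and they overlap widely for Eprs, Kars and Sars.

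Aars, the enzyme for alanine, was the most abundant synthetase in control livers. Its RPKM ran from 67.2 to 83.2 with a median of 73.7 in control livers, and from 48.5 to 52.4 with a median of 51.6 in EtOH livers. All EtOH livers were lower than any control liver, and they lay close together, with a coefficient of variation of 3.31%. The mean fell from 74.2 ± 5.32 to 50.9 ± 1.68 (SD, n = 6 each), 1.46-fold, and the log2 difference was -0.37 ± 0.040 (adjusted p = 0.00103, limma). The gene is listed at chr19:40952408-40974425, in a build that the sources used here do not give, as for the other listed positions.

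Mars, the enzyme for methionine and so for the first residue of every chain, had the tightest control values. They ran from 28.2 to 30.5 with a median of 29.7, and EtOH livers from 18.2 to 21.7 with a median of 20.8. The groups did not overlap. The mean fell from 29.6 ± 0.806 to 20.5 ± 1.26 (SD, n = 6 each), 1.44-fold, with a log2 difference of -0.37 ± 0.047 (adjusted p = 0.00260, limma; chr7:67252510-67269807).

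Yars, the enzyme for tyrosine, had the largest difference of the 36 genes. Control livers ran from 17.7 to 23.6 with a median of 23.2, and EtOH livers from 8.51 to 14.1 with a median of 10.9. All EtOH livers lay below the control range, and animal 1 was the highest of them. The mean fell from 21.8 ± 2.57 to 11.1 ± 1.86 (SD, n = 6 each), 1.97-fold, with a log2 difference of -0.81 ± 0.11 (adjusted p = 0.00385, limma; chr5:148350363-148378989).

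Farsa and Farsb encode the subunits of 1 enzyme, which loads phenylalanine, and they fell by like amounts. Farsa ran from 8.71 to 15.2 with a median of 11.9 in control livers, and from 5.53 to 8.13 with a median of 7.16 in EtOH livers. Farsb ran from 8.32 to 12.5 with a median of 10.2, and from 4.96 to 7.07 with a median of 6.35. In both genes the lowest control liver was animal 6 and the highest EtOH liver animal 6, and the groups stayed apart. The mean of Farsa fell from 12.0 ± 2.25 to 7.06 ± 0.961, 1.69-fold, with a log2 difference of -0.59 ± 0.11 (adjusted p = 0.0215, limma; chr19:24947664-24957186). Farsb fell from 10.2 ± 1.58 to 6.16 ± 0.824 (SD, n = 6 each), 1.65-fold, with a log2 difference of -0.57 ± 0.10 (adjusted p = 0.0183, limma; chr9:77806578-77865757). They lie on different chromosomes.

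Rars, the enzyme for arginine and a member of the multisynthetase complex, ran from 14.9 to 18.98 with a median of 16.9 in control livers and from 11.4 to 13.0 with a median of 11.9 in EtOH livers. The ranges were narrowly apart. Its mean fell from 16.9 ± 1.73 to 12.0 ± 0.571 (SD, n = 6 each), 1.40-fold, with a log2 difference of -0.32 ± 0.065 (adjusted p = 0.0256, limma; chr10:20721171-20745484). Its call was lost without control animal 4 or 5, or without EtOH animal 2, 3, 4 or 5, with an adjusted p of 0.0513 to 0.0589.

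Vars, the enzyme for valine, was the least abundant cytosolic synthetase. Control livers ran from 4.92 to 7.65 with a median of 6.21, and EtOH livers from 3.61 to 4.36 with a median of 4.07. The groups did not overlap. The mean fell from 6.23 ± 0.930 to 4.05 ± 0.305 (SD, n = 6 each), 1.54-fold, with a log2 difference of -0.47 ± 0.11 (adjusted p = 0.0421, limma; chr20:3874447-3888969). It lay nearest the threshold of the 7, and its call was kept in 1 of the 12 fits that left out an animal, the one without control animal 1, with adjusted p of 0.059 to 0.0924 in the other 11.

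The other cytosolic enzymes did not pass the test, though 9 of these 12 had an unadjusted p below 0.05 with a negative difference. In all, 16 of the 19 did so, against 7.42% of all tested transcripts. Hars (histidine), Lars (leucine) and Dars (aspartate) had EtOH livers all below control livers: Hars ran from 15.8 to 23.1 in control and from 11.4 to 14.8 in EtOH livers. Lars, at 12.2 to 14.4 against 10.2 to 11.6, had a small difference of -0.16 ± 0.058 (adjusted p = 0.193, limma). Dars was at 17.7 to 24.98 against 13.8 to 17.1, with -0.23 ± 0.088 (adjusted p = 0.227, limma). Hars stood at -0.35 ± 0.093 (adjusted p = 0.0750, limma).

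Nars, the enzyme for asparagine, came closest to the threshold (adjusted p = 0.0544, limma). Its means were 35.5 ± 5.31 and 24.1 ± 2.56, and its overlap came from control animal 6 and EtOH animal 1. Gars (glycine), at 24.4 ± 4.81 against 16.3 ± 2.58 (adjusted p = 0.0835, limma), overlapped in those same 2 animals. Tars (threonine) had means of 49.3 ± 4.54 and 37.4 ± 5.15 (adjusted p = 0.308, limma).

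Iars, the enzyme for isoleucine, ran from 7.89 to 10.8 with a median of 9.31 in control livers and from 5.26 to 8.99 with a median of 5.86 in EtOH livers. EtOH animal 1 alone reached into the control range. The means were 9.27 ± 1.02 and 6.37 ± 1.37 (SD, n = 6 each), and the log2 difference was -0.41 ± 0.12 (adjusted p = 0.0869, limma). Without EtOH animal 1 the test was passed. Wars, the enzyme for tryptophan, ran from 5.09 to 8.64 with a median of 6.30 in control livers and from 3.20 to 6.04 with a median of 3.59 in EtOH livers. Again animal 1 was the highest EtOH liver. Its means were 6.53 ± 1.31 and 4.13 ± 1.14 (SD, n = 6 each), with -0.52 ± 0.17 (adjusted p = 0.152, limma).

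Eprs and Kars did not share the direction on the quantile-normalized scale. Eprs, a single protein that loads both glutamate and proline, was at 58.1 ± 4.13 in control and 55.8 ± 5.60 in EtOH livers, with a log2 difference of 0.11 ± 0.078 (adjusted p = 0.544, limma). Kars, the enzyme for lysine, was at 19.5 ± 4.29 and 17.9 ± 2.09, with 0.05 ± 0.11 (adjusted p = 0.859, limma). Both signs turned negative when the RPKM values were used as deposited, at -0.06 and -0.10, and that of Kars also with scaling by medians, so no direction is given for either. Whether these 2 genes differ from the other cytosolic synthetases was not tested.

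Sars and Cars, for serine and cysteine, showed how the choice of 1 row bears on a gene. The 4 rows of Sars traded places between animals of both groups. Its highest row held from 18.4 to 90.5% of the gene's summed RPKM, and another row from 1.63 to 61.2%. On the highest row alone Sars ran from 5.04 to 25.8 with a median of 10.5 in control and from 5.05 to 17.8 with a median of 6.30 in EtOH livers. These ranges overlapped almost wholly, and the log2 difference of -0.42 ± 0.41 had an adjusted p of 0.650 (limma), at means of 13.8 ± 8.38 and 9.08 ± 5.26. Rows were also added up for every gene and the fit repeated. Reading single genes from that fit was decided after seeing the data. With its rows added up, Sars ran from 25.4 to 37.6 in control and from 16.9 to 24.1 in EtOH livers. The groups then stood apart, at means of 29.8 ± 4.27 and 20.4 ± 2.30 (SD, n = 6 each), and the difference was -0.38 ± 0.085 (adjusted p = 0.0211, limma).

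**Figure D2:**
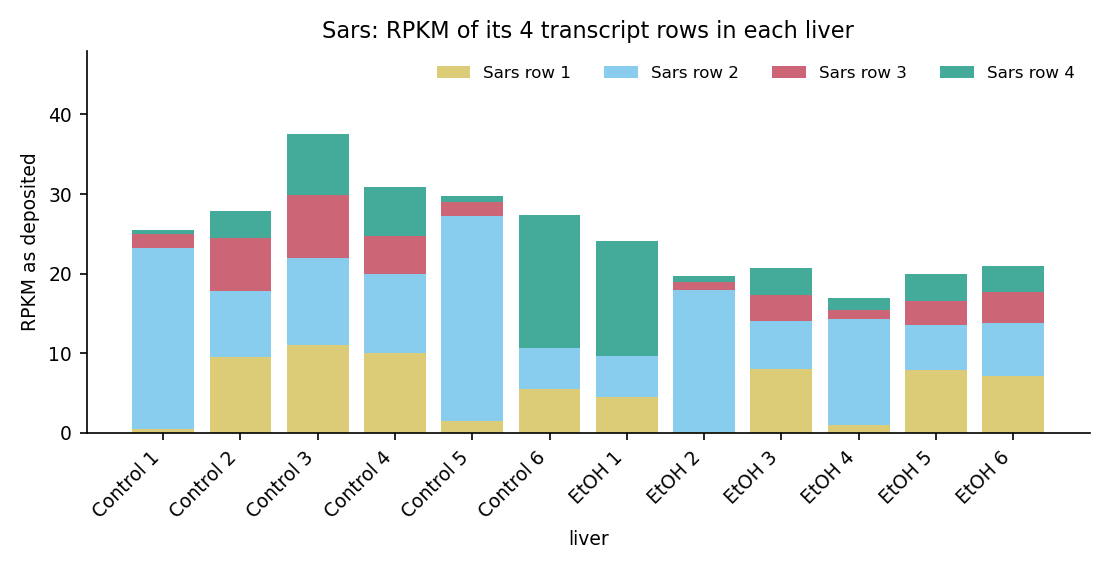
RPKM as deposited of the 4 Sars transcript rows, stacked for each control and EtOH liver. The split between rows changes from animal to animal in both groups, while the summed height is 25.4 to 37.6 in control and 16.9 to 24.1 in EtOH livers.

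Cars ran from 6.15 to 19.4 with a median of 16.0 in control and from 6.36 to 10.9 with a median of 8.95 in EtOH livers on its highest row. Control animal 4, at 6.15, lay below every EtOH liver, and the other control livers lay above all of them. The difference was -0.53 ± 0.24 (adjusted p = 0.316, limma), at means of 14.6 ± 4.65 and 8.74 ± 1.96. In control animal 4 the second row was the higher one, at 9.37 RPKM. Summed, Cars fell from 21.1 ± 3.04 to 12.7 ± 2.57 (SD, n = 6 each), a difference of -0.57 ± 0.12 (adjusted p = 0.0193, limma). With every gene of the series summed in this way, 12 cytosolic synthetases fell: the 7 named first, Sars, Cars, Hars, Iars and Nars. Fewer features were then tested, 15270, and 3.24% of them fell.

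**Figure D3:**
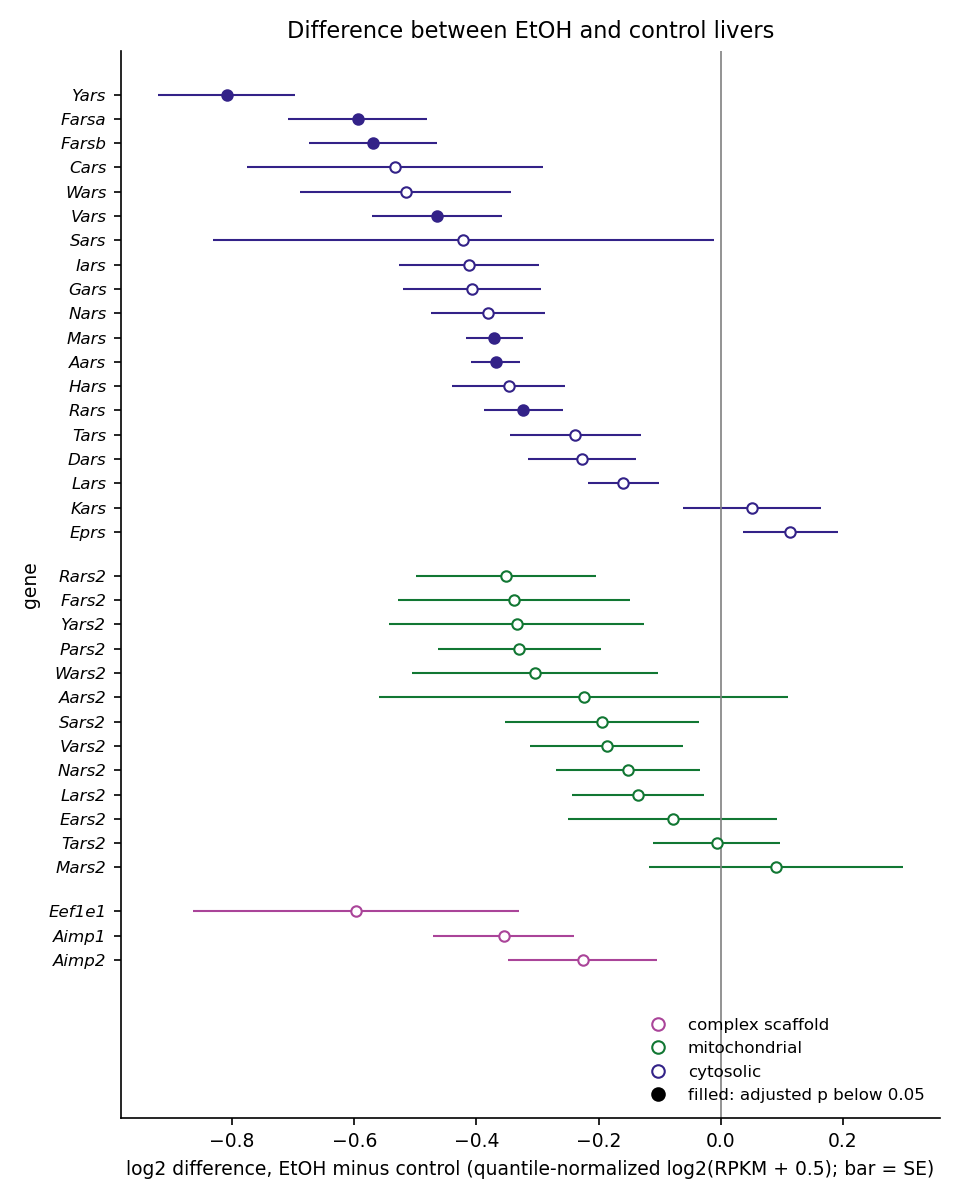
Log2 difference (EtOH minus control, quantile-normalized log2(RPKM + 0.5)) of 35 of the genes, with bars of 1 SE, coloured by compartment and filled where the adjusted p was below 0.05. The filled points are 7 cytosolic enzymes between -0.81 and -0.32, and 32 of the 35 points lie below 0.

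Enzymes inside and outside the multisynthetase complex both had members that fell. The counts of this paragraph stand against 1.29% of all tested transcripts, and 2.35% of those averaging 1 RPKM or more. Of the 7 measured inside it (Dars, Eprs, Iars, Kars, Lars, Mars and Rars), 2 fell, and their median log2 difference was -0.23. Of the 12 cytosolic enzymes outside it, 5 fell, with a median of -0.44. By catalytic fold, 4 of 8 class I enzymes and 3 of 10 class II enzymes fell, with medians of -0.44 and -0.37. Eprs, which joins a domain of each class, was in neither count. The differences between these subsets were not tested. The scaffold proteins passed the test in 0 of 3, a count near those shares, and their mean RPKM was lower in EtOH livers for 3 of 3. Aimp1 was at 16.8 ± 2.32 and 11.8 ± 2.14 RPKM (log2 difference -0.36 ± 0.12, adjusted p = 0.138, limma). Aimp2 was at 8.25 ± 1.62 and 6.41 ± 0.794 (-0.23 ± 0.12, adjusted p = 0.420). Eef1e1 ran from 2.01 to 4.62 with a median of 2.72 in control and from 0.564 to 2.46 with a median of 2.14 in EtOH livers. Its ranges overlapped, at means of 2.92 ± 0.951 and 1.79 ± 0.749 (-0.60 ± 0.27, adjusted p = 0.306, limma), and it had the largest difference of the genes that missed the test.

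Genes that fell were found both with and without the promoter match. Of all tested transcripts, 1.29% fell and 2.43% had EtOH livers all below control livers. Among those averaging 1 RPKM or more, the shares were 2.35% and 4.67%. Of the 7 genes with TGATGCAA, 3 fell (Aars, Mars and Yars), 3 had groups that did not overlap, and the median log2 difference was -0.38. Those 7 are all cytosolic. Of the 9 cytosolic genes with a promoter entry but no match, 3 fell (Farsa, Farsb and Vars), 5 did not overlap, and the median was -0.42. Eprs and Kars were both among the 9. The 13 mitochondrial and 3 scaffold genes with an entry had no match either, and 0 of them fell or lay apart, a count near those shares.

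The mitochondrial synthetases were less abundant and passed the test in 0 of 14 genes in either direction. In their RPKM range, 88 of 6216 transcripts fell and 77 rose, so a count of 0 in 14 lies near the background. An unadjusted p below 0.05 was found for 2, Rars2 and Pars2, both lower. The RPKM means were lower in EtOH livers for 13 of 14, the exception being Mars2, as they were for 3638 of the 6216 transcripts in the same RPKM range. The groups overlapped for all 14, as they did for most of those 6216 transcripts (EtOH livers all lower for 154, all higher for 58). The median log2 difference was -0.19, against 0.01 over those 6216 transcripts. The reads behind a mitochondrial gene numbered 59 to 721 over the 6 livers of a group, against 364 to 7970 for a cytosolic one, and the median SE was 0.15 against 0.11. Differences of mitochondrial genes were thus estimated less precisely at this depth, and whether the compartments differ was not tested.

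Rars2, for mitochondrial arginine tRNA, was at 4.96 ± 1.01 in control and 3.57 ± 0.782 RPKM in EtOH livers, with the largest difference of the 14 (-0.35 ± 0.15, adjusted p = 0.270, limma). Pars2, for proline, was at 1.70 ± 0.191 and 1.26 ± 0.168 (-0.33 ± 0.13, adjusted p = 0.255, limma), and only EtOH animal 6 overlapped the control livers. Fars2 stood at 4.26 ± 0.227 and 3.26 ± 1.04, with an EtOH spread far wider than the control one. Means of 4.13 ± 0.983 and 3.03 ± 0.751 were found for Yars2, and 2.39 ± 0.667 and 1.81 ± 0.569 for Wars2.

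The others had log2 differences between -0.22 and 0.09. Tars2 had the highest level of the 14, at 10.7 ± 2.00 and 9.72 ± 1.14. Lars2 (4.59 ± 0.536 and 3.91 ± 0.543) and Nars2 (4.34 ± 0.504 and 3.70 ± 0.586) were at lower levels, as were Ears2 (3.74 ± 0.925 and 3.30 ± 0.528), Vars2 (3.55 ± 0.590 and 2.93 ± 0.410) and Sars2 (3.04 ± 0.470 and 2.54 ± 0.583). Aars2 (1.93 ± 0.867 and 1.63 ± 0.932) and Mars2 (1.80 ± 0.419 and 1.97 ± 0.555) had the lowest levels beside Pars2 and Wars2.

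**Figure D4:**
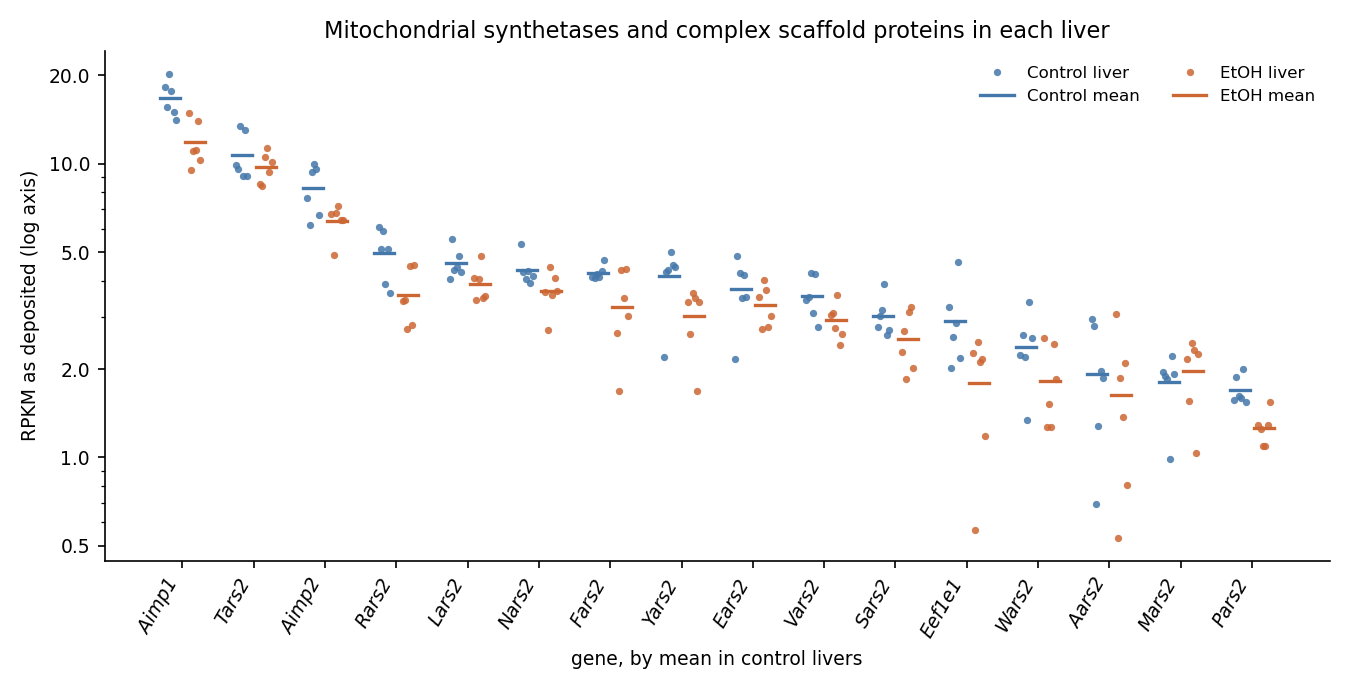
RPKM (log axis) of 13 mitochondrial synthetases and the 3 scaffold proteins in each of 6 control and 6 EtOH livers, with bars at the group means. The groups overlap for every gene shown, and no adjusted p was below 0.05.

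Summed over enzymes, the cytosolic total separated the groups and the mitochondrial total did not. These sums are of RPKM as deposited. On that scale the sum over all transcripts also separated the groups, at 535264 to 577525 in control and 515781 to 532901 in EtOH livers. Separation of a sum is therefore not particular to the cytosolic enzymes. The 19 cytosolic enzymes came to between 399 and 483 RPKM with a median of 464 in control livers and between 313 and 353 with a median of 327 in EtOH livers. The groups did not overlap, and the lowest control liver, animal 6, was also the lowest control in 11 of the 19 genes. The mean was 455 ± 30.1 in control and 331 ± 16.9 in EtOH livers (SD, n = 6 each), or 72.9% of control. The 14 mitochondrial enzymes came to between 53.4 and 64.5 in control and between 41.7 and 55.3 in EtOH livers, with means of 58.6 ± 4.57 and 49.6 ± 4.66, or 84.7% of control. These ranges overlapped. The scaffold proteins, at 28.0 ± 3.75 and 20.0 ± 3.22, also overlapped. In bulk tissue, fewer cells of a type and less RNA per cell cannot be told apart.

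**Figure D5:**
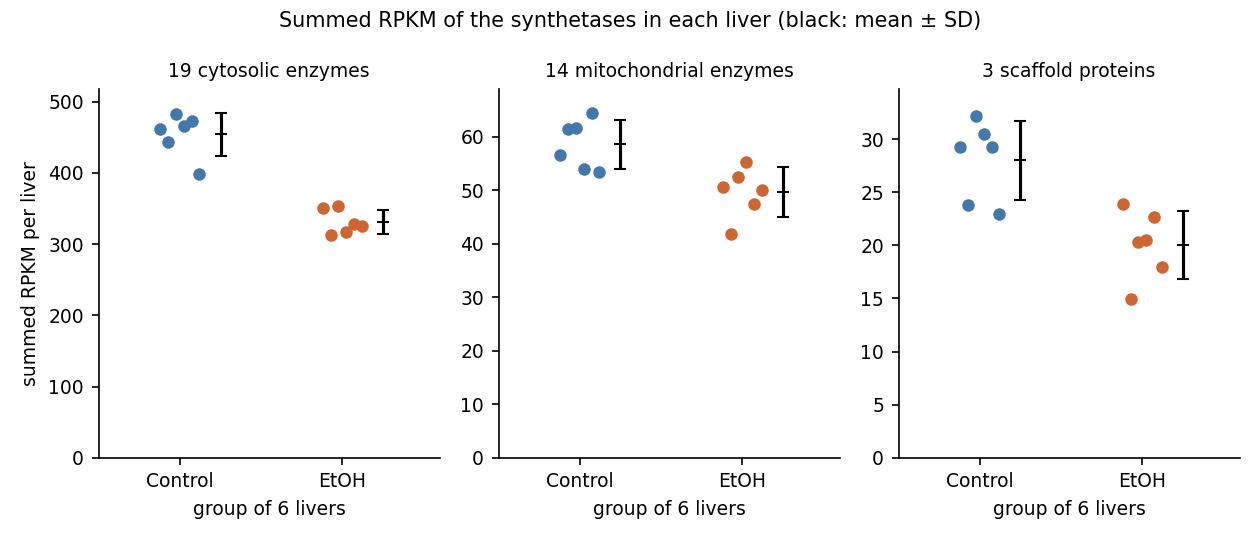
Summed RPKM of the cytosolic, mitochondrial and scaffold genes in each liver (points), with mean ± SD of 6 livers in black beside each group and axes from 0. Of the sums drawn, only the cytosolic ones separate the groups, at 399 to 483 in control and 313 to 353 in EtOH livers. The sum over all transcripts, not drawn, also separates them.

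Ratios within 1 liver were taken on the deposited RPKM, so a single scaling factor per liver leaves the ratios of sums as they are, while the level-dependent quantile step does not. The cytosolic sum was 7.78 ± 0.543 times the mitochondrial sum in control livers (7.23 to 8.63) and 6.72 ± 0.585 times in EtOH livers (5.74 to 7.50), and these ranges overlapped. Over the 15 pairs of a cytosolic and a mitochondrial enzyme for the same amino acid, the mean log2 ratio (0.5 added to each RPKM) was lower in EtOH livers for 13, and the groups overlapped for all 15. The median change was -0.29, from -0.61 for Mars over Mars2 to 0.26 for Eprs over Pars2. The second largest was Yars over Yars2, at -0.56. Some genes entered more than 1 pair: Eprs stood over Ears2 and over Pars2, and Fars2 stood under Farsa and under Farsb. The pairs are thus not independent, and those that were not lower were both pairs of Eprs, at 0.075 and 0.26.

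Other genes of tRNA production and of the amino acid response were read beside the synthetases. The first list held 33 tested genes of tRNA transcription, processing, modification, export, editing and delivery to the ribosome, or related to the synthetases. Of these 33, 3 fell and 0 rose, with a median of -0.19. Over all tested transcripts, 1.29% fell and 1.13% rose. Pus1, a tRNA pseudouridine synthase, had EtOH livers all below control livers (4.43 to 8.62 against 2.55 to 3.96 RPKM) and a difference of -0.63 ± 0.15 (adjusted p = 0.0469, limma). Trmt61a, the catalytic subunit of a tRNA methyltransferase, had the smallest p of the 33, with -1.10 ± 0.23 (adjusted p = 0.0329). Polr3d, a subunit of RNA polymerase III, which transcribes tRNA genes, stood at -0.62 ± 0.15 (adjusted p = 0.0469).

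Of 29 amino acid response genes, 4 fell and 1 rose, against 1.29% and 1.13% of all tested transcripts, with a median of -0.28. Atf4 itself had the smallest p: its RPKM ran from 92.1 to 129 in control and from 59.3 to 68.2 in EtOH livers, a log2 difference of -0.57 ± 0.082 (adjusted p = 0.00507, limma). Psat1, of serine synthesis, fell from 6.10 ± 2.00 to 1.93 ± 0.747, a log2 difference of -1.39 ± 0.25 (adjusted p = 0.0158). Shmt2, the mitochondrial serine hydroxymethyltransferase, also fell (-0.28 ± 0.049, adjusted p = 0.0134), as did Slc3a2, the heavy chain of several amino acid transporters (-0.48 ± 0.11, adjusted p = 0.0456). The groups did not overlap for Atf4, Psat1 and Shmt2, nor for Atf5, which missed the test (adjusted p = 0.151, limma). These are 4 of the 29 genes, against 2.43% of all tested transcripts with EtOH livers all below control livers. Nupr1, a stress-induced chromatin protein, rose by 0.71 ± 0.14 (adjusted p = 0.0244), opposite in direction to the 4 that fell. Of all 29 genes, 24 had a log2 difference below 0 and 5 above it. As with the synthetases, some of these genes were also picked by the study from these samples and are no independent evidence of direction.

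Markers of other liver cells also moved. The counts below stand against 1.29% of all tested transcripts that fell and 1.13% that rose. Of 7 Kupffer cell and macrophage markers tested 3 rose (Clec4f, Cd163 and Vsig4), and their summed RPKM was 121 to 182 in control and 162 to 201 in EtOH livers. Of 9 stellate cell markers 2 rose (sums 30.5 to 36.1 and 33.5 to 49.2), and of 4 endothelial markers 1 rose (27.7 to 35.2 and 32.7 to 45.5). Of 9 hepatocyte markers 0 fell and 1, Cps1, rose. The quantile step left Alb and Tf with the same mean in both groups, so their test could show no difference. The hepatocyte sums of 86189 to 113658 and 95123 to 121136 were by far the largest of the marker lists in every liver. Most of them was Alb, at means of 70352 in control and 79085 in EtOH livers. Cholangiocyte markers moved in 0 of 4, erythroid in 0 of 2, and lymphocyte markers rose in 1 of 8. The part of these shifts, and of the deeper EtOH libraries, in the synthetase differences was not tested.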

How the data were processed

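The authors processed the reads in CLCbio Genomics Workbench 4.9 (version per the study's methods) and deposited untransformed RPKM values per transcript and liver. Their genome build was not given in the sources used here. Their deposited fold changes and test statistics were not used. Of 34391 listed transcripts, 12673 were at 0 in all livers and 21718 were tested. Reads were recovered by matching the RPKM values to whole numbers (100% of transcripts, within 0.01 of a read) and served as an alternative scale. That share includes 2052 transcripts above 0 in a single liver, where any count meets the match. Whether the recovered reads are the true numbers was not tested for transcripts seen in few livers. Counting error limits low values, and the depth behind each gene is given as reads.

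Values were quantile normalized as log2(RPKM + 0.5) and fitted with limma 3.58.1 in R 4.3.3 with a mean-variance trend, 2-sided, without covariates. Code was tested on simulated data. Genes were taken by symbol, and the members and all lists were chosen with earlier results of these data known. Every member but 1, which is not reported here, was named, with statistics in full for those that passed and the 5 others with the largest difference at a mean RPKM of at least 1. In the other lists, genes that passed and the one with the smallest p were named; the extra examples were chosen after their values were seen. Promoters were from RefSeq GRCr8, and listed gene positions were never combined with that build. Alternatives covered pseudocounts of 0.1 and 1, the scaling, the square-root scale, filters on low values, the trend, the animal number as a block, recovered reads with voom, summed rows and leaving out each animal.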

Additional observations from a re-analysis of the deposited data

Results flagged for a closer look

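In 8 of 72 sets of 6 livers (36 genes in 2 groups) the highest or lowest liver stood apart, its gap to the nearest other liver taking up more of the whole range than Dixon's critical value allows. Chance gives this in about 1 in 20 such sets. Among cytosolic enzymes, EtOH animal 1 was high for Iars (8.99 RPKM, next 6.63) and Nars (29.0, next 23.8), and control animal 3 was high for Gars (33.5, next 24.7). Among mitochondrial enzymes, control animal 6 was high for Fars2 (4.69, next 4.30), control animal 1 was high for Nars2 (5.33, next 4.32) and low for Yars2 (2.20, next 4.27), and control animal 4 was low for Mars2 (0.988, next 1.85). EtOH animal 2 was low for the scaffold protein Aimp2 (4.89, next 6.42). None of these 8 sets belongs to a gene that fell.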

How the results depend on the processing

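The count of 7 cytosolic synthetases that fell, where 1.29% of all transcripts did, is given here with that share in parentheses. It was 14 without scaling between livers (2.98%; 15 over all 36 genes, with Aimp1), 11 when low transcripts under a mean RPKM of 1 were dropped (3.97%), 11 with voom on the recovered reads (2.06%) and 12 with summed rows (3.24%); over all 36 genes these last 3 were 11, 11 and 12. It was 7 with a pseudocount of 0.1 (1.34%) or 1 (1.26%) and without the trend (1.01%). It was 6 on the square-root scale with limma (1.12%) and 9 with scaling by medians (1.55%). With an unmoderated pooled test on square roots it was 7 (0.838%). There 1 mitochondrial gene also fell, Pars2, which made 8 over all 36 genes. Leaving out 1 animal gave 5 to 8 (0.607 to 1.53% of all transcripts), for the cytosolic enzymes and over all 36 genes alike, and 0 for the mitochondrial ones. No member rose under any of these alternatives. Aars, Mars and Yars fell in all of them. Vars missed the test on the square-root scale with limma. Leaving out single animals brought further calls for Hars (control animal 3), Cars (control animal 4), Nars (control animal 6 or EtOH animal 1) and Iars (EtOH animal 1).

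Animal numbers 1 to 6 are shared by both groups, and the labels do not say whether they pair the livers. Correlations between same-numbered livers, as deviations from group means, were -0.0669 to 0.0322, and 1 of 6 matched its own number best. So few livers cannot exclude a pairing. With the number as a block, 4 cytosolic enzymes fell (4 over all 36 genes), Aars, Mars, Yars and Nars, where 73 of all 21718 transcripts (0.336%) did.

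Among the genes named, directions that turned belonged to genes near 0: Eprs (-0.061 without scaling, -0.039 with voom), Kars (-0.097, -0.076 and, with scaling by medians, -0.0072) and Tars2 (0.12 with summed rows). Leaving out 1 animal gave ranges across 0 for Kars (-0.014 to 0.12), Mars2 (-0.026 to 0.226) and Tars2 (-0.050 to 0.0486). The cause was not tested. The low read numbers of Wars2 (59 over the control and 60 over the EtOH livers) and Mars2 (72 and 110) limit what can be said of them.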
